A study of Mus musculus with 16 samples.

Results

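Mitochondrial ribosomal proteins were followed in brown adipose tissue (BAT) and gonadal white adipose tissue (gWAT) of mice lacking phosphoglycerate mutase 1 (Pgam1), an enzyme of lower glycolysis, in adipocytes. The genes were chosen by symbol, Mrpl or Mrps followed by a digit, and 6 pseudogenes were left out. This gave 78 genes of the 22907 gene symbols with a probe on the array, 49 named for the large subunit and 29 for the small subunit. Each of the 78 stood well above background on every one of the 16 arrays, so that none of them was lost to the filter on dim probes. The symbols do not follow the subunits exactly, since Mrps18a and Mrps30 lie in the large subunit in structures of the mammalian mitoribosome, and Mrps36 is also known as Kgd4, a component of the 2-oxoglutarate dehydrogenase complex.

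Mitochondria have their own ribosome, which translates the few proteins encoded in mitochondrial DNA, all of them subunits of the respiratory chain and ATP synthase. Its RNAs come from mitochondrial DNA, whereas its proteins are encoded in the nucleus, made in the cytosol and imported. In brown fat, which is packed with mitochondria, this machinery serves the oxidative capacity that thermogenesis needs, and white fat holds fewer mitochondria.

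RNA was measured on 1-colour Agilent arrays, with 4 arrays in each of 4 groups of male C57BL/6NCrSlc mice kept at 23 °C on normal chow. The Adipo-Pgam1 KO mice carried Adipoq-Cre and 2 floxed Pgam1 alleles (Adipoq-Cre+: Pgam1 flox/flox), and the littermate controls, called wild type (WT) in the labels, carried the floxed alleles without Cre (Adipoq-Cre-: Pgam1 flox/flox). Cre was driven by the adiponectin promoter, so that deletion is directed to adipocytes, while RNA came from whole tissue. In bulk tissue, fewer cells of a type and less RNA per cell cannot be told apart. Mice were 16 weeks old, except for replicate 4 of the KO group in both tissues, which was 14 weeks old. Values are log2 intensities, the scanner's signal over the 75th percentile of its array, and the brightest probe stood for each gene. A gene passed the test at an adjusted p of 0.05 in limma (Benjamini-Hochberg, all genes tested). The labels give each array as a separate sample without saying that each came from its own mouse, so that p-values measure the spread between these samples. Replicate numbers do not establish whether the 2 tissues came from the same mice, and the fits over both tissues treat their arrays as independent.

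Pgam1 itself was lower in BAT of Adipo-Pgam1 KO mice, at 6.20 ± 0.17 (SD, n = 4) against 7.94 ± 0.11 (SD, n = 4) in controls. On the arrays labelled Adipo-Pgam1 KO in gWAT it was higher than in controls, at 6.31 ± 0.25 (SD, n = 4) against 5.36 ± 0.29 (SD, n = 4). The study itself reported less Pgam1 in both BAT and gWAT of these mice by PCR and western blot, with lower enzyme activity. The deleted exons are not given in the sources used here, so that it is not known whether the array probe lies within them. The cause of the rise on the gWAT arrays was not tested. On the same arrays 5 of the 6 brown adipocyte markers tested were higher than in controls. Directions in gWAT are given as the labels assign the arrays. At most 62.2% of probes on an array were well above background, and no spot was saturated. The arrays lay on 3 slides, with 1 BAT control on the slide of the BAT KO arrays and 1 gWAT control on that of the gWAT arrays labelled KO. The other controls lay on another slide than the KO arrays of their tissue, so that slide and genotype cannot be fully told apart. Of the 8 brown adipocyte markers, all were well above background on every BAT array. On all 4 gWAT control arrays 5 of the 8 were so as well, whereas Ucp1 was so on none of them. All 4 gonadal fat markers were well above background on every gWAT array. In BAT, Wt1 and Tcf21 were so on no array, whereas 1 of the 4 markers was so on all 4 control arrays. No group had any of 5 epididymis markers well above background throughout.

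In BAT of Adipo-Pgam1 KO mice, the transcripts of the mitochondrial ribosome were lower across both subunits. Of the 78 genes, 69 fell, none rose and 9 did not pass, where 34.0% of the 14277 genes tested were lower and 27.5% higher. The 69 were 44 of the 49 large subunit genes and 25 of the 29 small subunit genes. The median log2 difference was -0.73, a relative expression of 0.604, against -0.08 over all genes tested. The medians of the large and the small subunit were -0.73 and -0.72, and they stayed at -0.73 and -0.72 with Mrps18a and Mrps30 counted in the large subunit and Mrps36 left out. In 66 genes every KO array lay below every control array, which held for 32.0% of the genes tested.

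**Figure D1:**
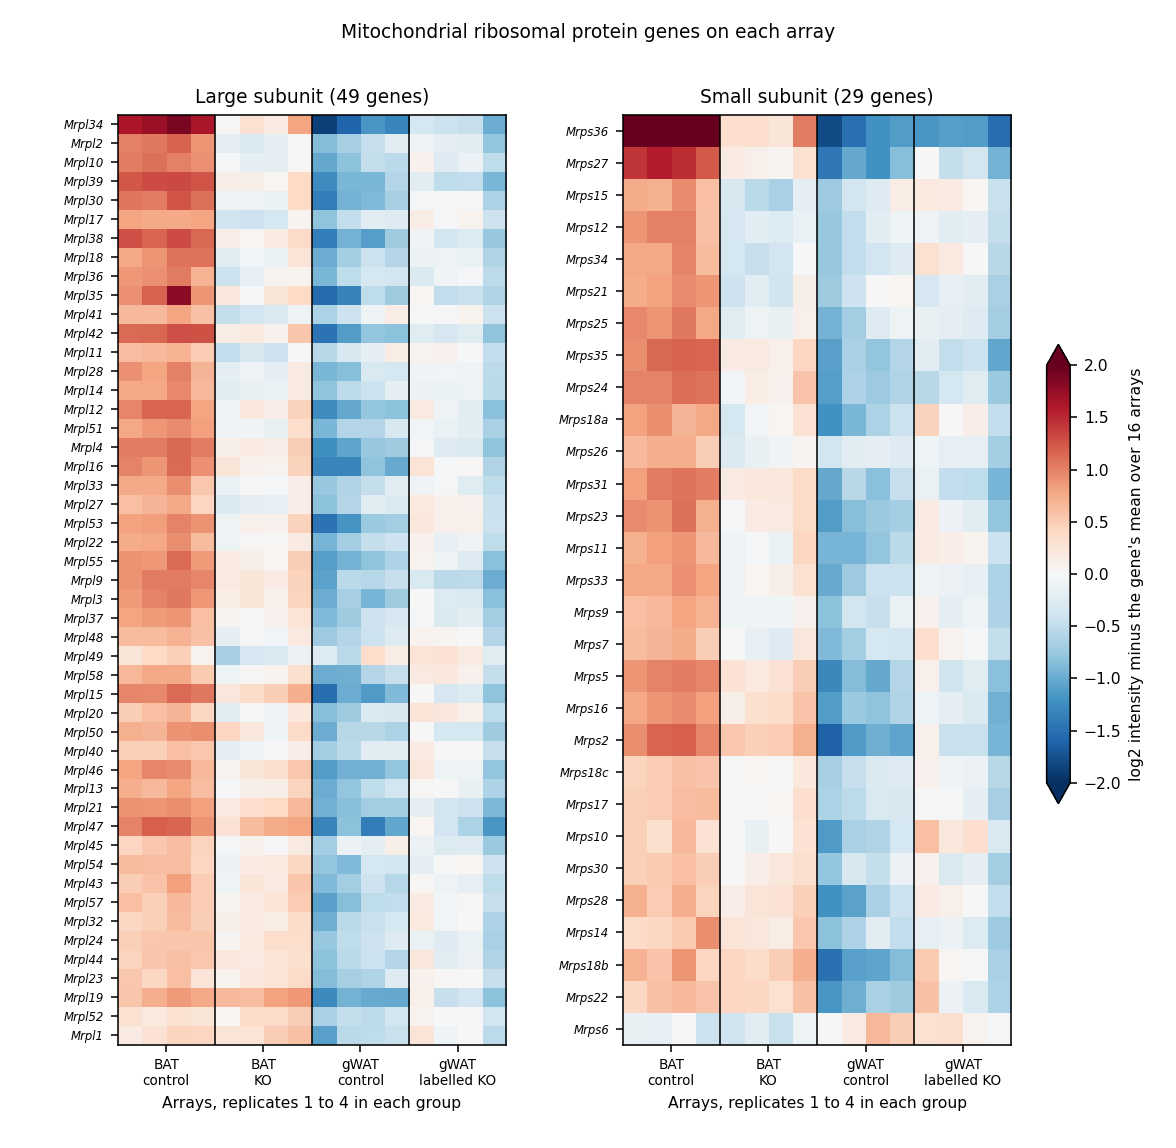
Log2 intensity of each gene on each of the 16 arrays, as the difference from the gene's own mean over all arrays (colour), for the 49 genes named for the large subunit and the 29 named for the small subunit. Rows run from the most negative to the most positive difference between Adipo-Pgam1 KO and control BAT. Controls of BAT are high in nearly all rows and controls of gWAT low, and Mrps6 in the last row of the small subunit runs the other way.

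Mrps36 showed the largest difference, with values of 6.84, 6.77, 7.06 and 6.94 in controls and 5.11, 5.10, 5.02 and 5.81 in Adipo-Pgam1 KO mice. All KO arrays lay below all controls, and replicate 4 was the nearest to them. The log2 difference was -1.65 (standard error 0.18, adjusted p = 9.16e-05 in limma), a relative expression of 0.319. Mrpl34 lay at 6.25, 6.37, 6.52 and 6.27 in controls and at 4.65, 4.94, 4.80 and 5.42 in KO mice. Its log2 difference was -1.40 (standard error 0.17, adjusted p = 1.38e-04 in limma), with replicate 4 again nearest to the controls. Mrps27 lay at 2.91, 3.06, 2.96 and 2.71 in controls and at 1.66, 1.58, 1.54 and 1.78 in KO mice. Its log2 difference was -1.27 (standard error 0.11, adjusted p = 2.85e-05 in limma), and its KO arrays lay close together.

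Among the other large subunit genes, Mrpl2, a protein next to the peptidyl transferase centre, fell by 1.19 on the log2 scale (standard error 0.11). Mrpl10 and Mrpl39 both fell by 1.11, Mrpl30 fell by 1.09 and Mrpl17 fell by 1.05, with standard errors of 0.09 to 0.14. Of the small subunit, Mrps15 fell by 1.17 and Mrps12, a protein of the decoding centre, fell by 1.11 (standard error 0.13 and 0.12). Mrpl11 and Mrpl12 of the stalk region changed by -0.93 and -0.84, Mrpl58 by -0.59, Mrps16 by -0.52 and Mrpl45 by -0.44. All of these had no overlap between KO and control arrays.

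The 9 genes that did not pass lay between -0.37 and 0.08. They include Mrpl19 at 0.012 (standard error 0.10), Mrpl52 at 0.07 (standard error 0.11), Mrps6 at -0.10 (standard error 0.13) and Mrps22 at -0.13 (standard error 0.10). Mrpl1, Mrpl23, Mrpl43 and Mrps14, which are named here after their values were seen, were at 0.08, -0.21, -0.37 and -0.27. Mrpl52 lay at 5.49, 5.38, 5.49 and 5.44 in controls and at 5.23, 5.57, 5.58 and 5.69 in KO mice, so that its groups overlapped.

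Promoter sequence was examined because nearly all of these genes moved together in BAT. RefSeq promoters of GRCm38.p6, from 250 bases before to 50 after the start, were found for 69 of the 78 genes. No entry was found for Mrpl4, Mrpl13, Mrpl15, Mrpl19, Mrpl38, Mrpl54, Mrps28, Mrps34 and Mrps35. The letters searched on both strands were GCGCATGCG for NRF1, CCGGAAG for GABPA, AAGATGGCG for YY1, CAAGGTCA for estrogen-related receptors and GGGCGG for Sp1, of which the first 4 belong to factors known for genes of mitochondrial proteins. Copies of GGGCGG can overlap each other by 1 base. The GABPA letters were in the promoters of 26 of the 69 genes, 37.7%, against 18.3% of the genes tested in BAT and 8.86% of all 32851 promoters in the table. They were in 23 of 56 cytosolic ribosomal protein genes, 41.1%, and in 4 of 33 complex I genes, 12.1%. The YY1 letters were in 8 genes, 11.6%, against 3.21% and 1.40%, with 15.2% for complex I and 5.36% for the cytosolic ribosome, and the NRF1 letters in 7 genes, 10.1%, against 3.68% and 1.75%. The Sp1 letters were in 34 genes, 49.3%, against 64.4% and 35.7%, and those of estrogen-related receptors in 2 genes, 2.90%, against 1.33% and 1.56%. In 17 genes none of these letters was found.

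The promoters of the 3 genes with the largest BAT differences, of Mrpl46, which starts back to back with Mrps11, and of 2 genes that did not pass in BAT are shown 5′ to 3′ on the coding strand, with the searched letters in capitals.
Mrps36, chr13:100744610-100744909, strand -: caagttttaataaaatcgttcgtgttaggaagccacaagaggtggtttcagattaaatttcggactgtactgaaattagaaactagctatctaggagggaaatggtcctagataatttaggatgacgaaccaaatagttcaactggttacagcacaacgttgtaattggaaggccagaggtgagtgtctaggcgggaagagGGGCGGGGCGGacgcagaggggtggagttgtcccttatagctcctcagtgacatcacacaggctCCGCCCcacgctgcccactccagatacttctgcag
Mrpl34, chr8:71464676-71464975, strand +: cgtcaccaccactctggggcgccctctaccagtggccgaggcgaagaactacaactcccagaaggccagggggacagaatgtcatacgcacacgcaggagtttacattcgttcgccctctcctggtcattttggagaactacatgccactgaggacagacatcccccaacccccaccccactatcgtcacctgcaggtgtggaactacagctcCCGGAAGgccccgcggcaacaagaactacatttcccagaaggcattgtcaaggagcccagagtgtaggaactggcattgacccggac
Mrps27, chr13:99344536-99344835, strand +: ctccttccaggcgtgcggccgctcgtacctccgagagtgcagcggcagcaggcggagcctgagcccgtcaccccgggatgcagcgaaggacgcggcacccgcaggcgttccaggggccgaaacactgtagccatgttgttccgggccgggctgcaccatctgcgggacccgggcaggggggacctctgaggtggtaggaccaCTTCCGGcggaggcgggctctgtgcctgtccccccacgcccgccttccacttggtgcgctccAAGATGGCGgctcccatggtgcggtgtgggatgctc
Mrpl46, chr7:78783040-78783339, strand -: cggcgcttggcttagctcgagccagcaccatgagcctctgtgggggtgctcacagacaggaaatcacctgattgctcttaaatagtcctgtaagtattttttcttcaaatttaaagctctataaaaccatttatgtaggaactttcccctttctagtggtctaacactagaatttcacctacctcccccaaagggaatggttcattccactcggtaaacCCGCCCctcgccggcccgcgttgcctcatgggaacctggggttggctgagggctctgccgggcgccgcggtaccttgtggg
Mrpl52, chr14:54426659-54426958, strand +: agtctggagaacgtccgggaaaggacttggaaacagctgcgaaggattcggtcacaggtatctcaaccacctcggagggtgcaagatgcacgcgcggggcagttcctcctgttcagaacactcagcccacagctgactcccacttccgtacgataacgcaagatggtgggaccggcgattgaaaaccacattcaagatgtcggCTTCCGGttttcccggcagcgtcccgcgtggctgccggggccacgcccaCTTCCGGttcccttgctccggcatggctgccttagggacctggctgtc
Mrps6, chr16:92058086-92058385, strand +: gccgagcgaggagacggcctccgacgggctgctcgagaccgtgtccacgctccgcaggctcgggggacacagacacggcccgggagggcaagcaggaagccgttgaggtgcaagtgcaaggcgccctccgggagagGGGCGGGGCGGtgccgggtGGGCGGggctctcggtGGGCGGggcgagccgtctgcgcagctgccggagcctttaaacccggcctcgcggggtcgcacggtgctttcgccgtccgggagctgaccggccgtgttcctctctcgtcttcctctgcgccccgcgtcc
Mrps36, which fell most in BAT, and Mrps6, which did not pass, hold only Sp1 letters. Mrpl34 holds the GABPA letters 37 bases before the start, and Mrps27 holds them 48 bases before it together with the YY1 letters 14 bases after it. Mrpl52, at a BAT difference of 0.07, holds 2 copies of the GABPA letters. The 26 genes with the GABPA letters had a median BAT difference of -0.74 and the 43 without them one of -0.72. The medians were -0.91 for the 8 genes with the YY1 letters and -0.71 for the 61 without them. For the Sp1 letters they were -0.67 in the 34 genes with them and -0.74 in the 35 without. For the NRF1 letters they were -0.74 in 7 genes and -0.72 in 62, and for estrogen-related receptors -1.12 in 2 genes and -0.72 in 67. These are descriptions of letters in a fixed window, and a part of the letters in the BAT differences was not tested.

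The 3 paralogs of the Mrps18 family, which take different places in the ribosome, did not move alike. In BAT, Mrps18a changed by -0.81 (standard error 0.14), Mrps18c by -0.47 (standard error 0.09) and Mrps18b by -0.14 (standard error 0.13). Only the first 2 passed. The log2 ratio of Mrps18b to Mrps18a within an array is unchanged when the array is scaled by a constant, though it can change with quantile normalization. Only the change of this ratio between groups is read, since levels of different probes are not comparable. The ratio was 0.92 ± 0.26 (SD, n = 4) in BAT controls and 1.59 ± 0.17 (SD, n = 4) in KO mice, a change of 0.67 (p = 0.0286 in an exact two-sided permutation test, which can go no lower with 4 arrays against 4). In gWAT, Mrps18b was 1.10 higher in the arrays labelled KO, Mrps18a 0.82 and Mrps18c 0.25, of which the last did not pass. There the ratio of Mrps18b to Mrps18c moved most, from 0.23 ± 0.11 to 1.08 ± 0.23 (SD, n = 4 each, exact permutation p = 0.0286). Of 6 such ratios tested over both tissues, none overlapped between the groups, with a Benjamini-Hochberg adjusted p of 0.0286 (exact permutation) for each. How often ratios of other gene pairs separate the groups was not counted, so that this is not read as particular to the family. For Mrps18c over Mrps18a in BAT the groups nearly met, with a highest control of 0.036 and a lowest KO array of 0.041. Slide and genotype cannot be fully told apart here either. The 3 ratios within a tissue are not independent, since any 2 of them determine the other.

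**Figure D2:**
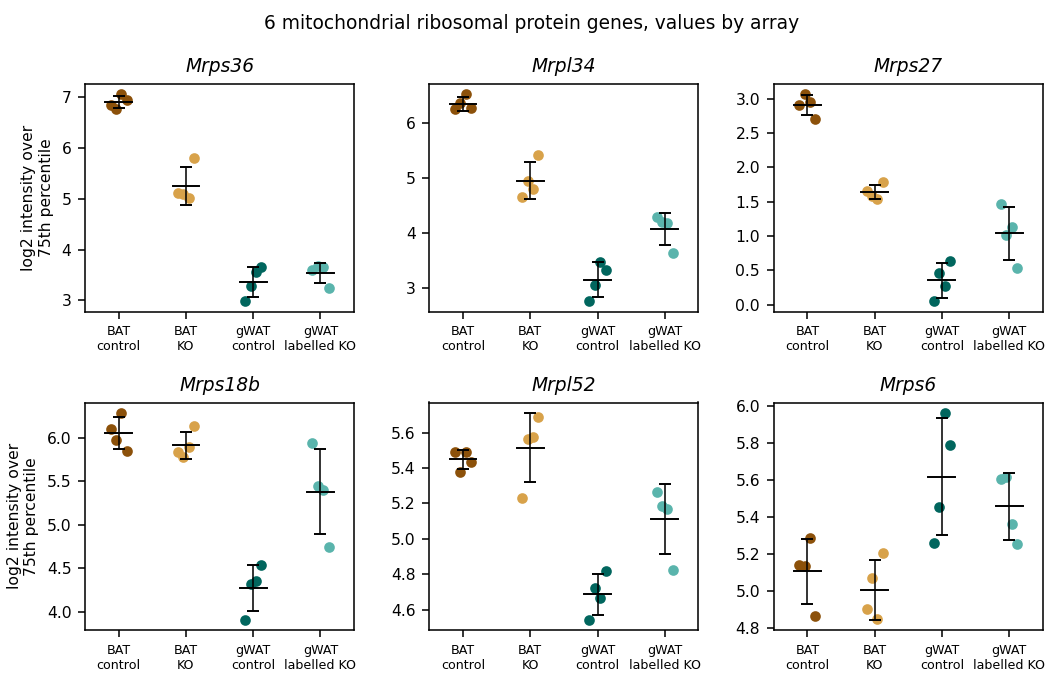
Log2 intensity over the array's 75th percentile of 6 genes on each array (points, replicates 1 to 4 from left to right) with the mean and SD of each group of 4. Mrps36, Mrpl34 and Mrps27 are lower in BAT of KO mice than in BAT controls without overlap, whereas the BAT groups of Mrps18b, Mrpl52 and Mrps6 overlap. The axes differ between panels, and levels of different genes are not comparable.

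The BAT differences depended on how arrays were scaled. With spike-in scaling, all genes shifted up to a median of 0.46, 26 of the 78 genes were lower and 7 higher, and the median was -0.19. With Actb and Rplp0 scaling, all genes shifted down to a median of -0.67, all 78 were lower and the median was -1.32. Of all genes past the threshold, 44.8% were higher with the 75th percentile, 79.6% with spike-ins and 17.7% with Actb and Rplp0. Relative to the median of all genes the members lay at -0.64 under each of these. That the value is the same follows by construction, as each subtracts a constant from an array. After quantile normalization the members lay at -0.48, with 58 lower and 1 higher. Within the slide that holds both groups the median was -0.61, where 37 were lower in a comparison of 1 control array with 4 KO arrays that can call fewer genes.

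Cell type markers also moved with genotype in BAT. Of 8 brown adipocyte markers 7 were lower, with a summed level (linear scale, over the 75th percentile) of 3372 to 3623 in controls and 1188 to 1891 in KO mice. Of 8 general adipocyte markers 7 were lower, from 2436 to 2669 in controls to 817 to 1161 in KO mice. All 10 macrophage markers were higher, from 22.2 to 44.0 in controls to 143.2 to 210.0 in KO mice, and all 5 fibroblast markers as well, from 120.7 to 167.1 to 227.3 to 327.1. The summed level of 10 skeletal muscle markers was 40.4 to 49.2 in controls and ran from 6.73 to 125.0 in KO mice, highest in replicate 1. The part of these markers in the ribosomal result was not tested.

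Other genes of mitochondrial translation were read from lists. All 5 mitoribosomal proteins with other names (Dap3, Ptcd3, Chchd1, Aurkaip1 and Gadd45gip1) were lower in BAT of KO mice, with a median of -0.76, and Aurkaip1 and Ptcd3 changed most, by -0.89 and -0.81 (standard error 0.12 and 0.11). With spike-in scaling 1 of the 5 was lower, at a median of -0.22. Of 15 mitochondrial translation factors tested, 13 were lower and none higher, with a median of -0.67 (5 lower and 1 higher with spike-in scaling, median -0.13). Tufm, the elongation factor that brings aminoacyl-tRNA to the ribosome, fell by 1.25 on the log2 scale (standard error 0.14), and Guf1, a translocase that acts on the elongating ribosome, fell by 1.12 (standard error 0.12). Of 27 assembly factors, 20 were lower and none higher, with a median of -0.48, which turned to 0.061 with spike-in scaling, where 6 were higher and 4 lower. The rRNA methyltransferases Mrm2 and Nsun4 fell by 1.26 and by 1.15 on the log2 scale, with standard errors of 0.13 and 0.12.

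The 14 regulators of mitochondrial transcription and biogenesis were divided, with 7 lower, 3 higher and 4 not passing (2 lower and 7 higher with spike-in scaling). Ppargc1b, a coactivator of genes for mitochondrial proteins, changed by -1.94 (standard error 0.22, adjusted p = 1.19e-04 in limma). Myc, a transcription factor that drives ribosome production, rose by 2.35 (standard error 0.20, adjusted p = 2.74e-05 in limma). Named after their values were seen, Tfb2m and Tfam, which act on mitochondrial DNA, changed by -1.64 and -0.65 (standard error 0.15 and 0.12), and Nrf1, a factor of nuclear promoters, by 0.71 (standard error 0.14). Of 76 cytosolic ribosomal proteins 56 were higher and 1 was lower, with a median of 0.48. With Actb and Rplp0 scaling, where Rplp0 is itself one of them, 8 were higher and 23 lower at a median of -0.11. All 37 subunits of complex I, the largest complex of the respiratory chain, were lower, with a median of -1.18. Within an array, the median of the mitochondrial ribosomal proteins over that of the cytosolic ones, each as the difference from gWAT controls, was 1.32 ± 0.09 (SD, n = 4) in BAT controls and 0.22 ± 0.16 (SD, n = 4) in KO mice. Scaling an array by a constant leaves this quantity unchanged, but quantile normalization does not.

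**Figure D3:**
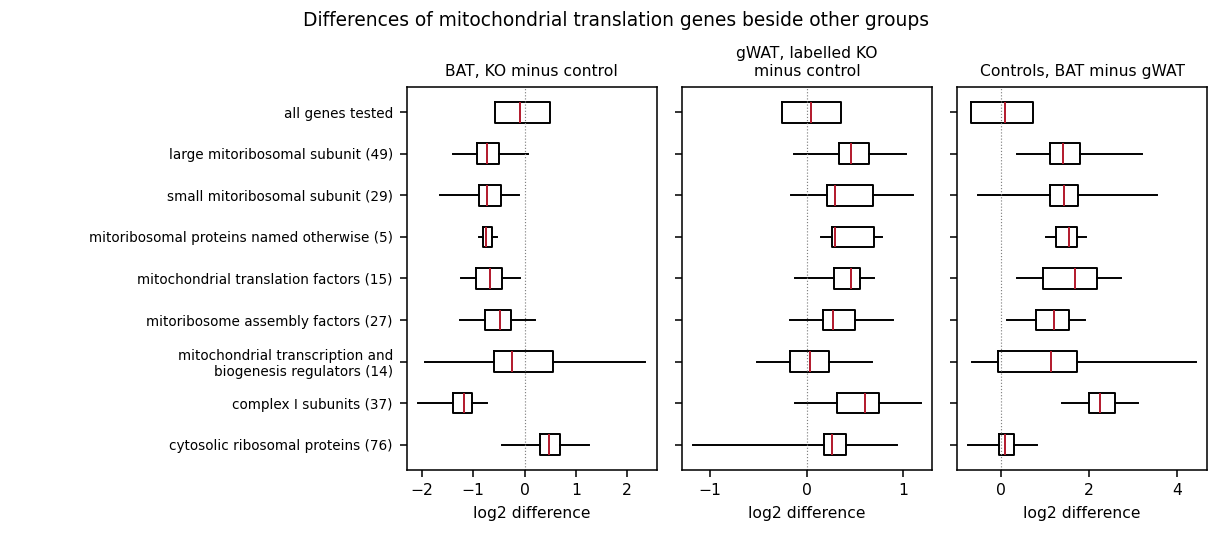
Log2 differences in BAT, in gWAT and between the tissues in controls for lists of mitochondrial translation genes, complex I and the cytosolic ribosome, with the number of genes in parentheses. Boxes span the quartiles with the median in red, and whiskers reach the lowest and highest gene, except for all genes tested, where only the quartiles are drawn. In BAT the median of the mitoribosomal subunits lies near -0.73 and that of cytosolic ribosomal proteins at 0.48 (-0.11 with Actb and Rplp0 scaling).

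In gWAT, arrays with the label Adipo-Pgam1 KO held higher levels of some mitochondrial ribosomal transcripts. Of the 78 genes, 15 were higher (19.2%), none was lower and 63 did not pass, where 9.97% of the 14146 genes tested were higher and 7.85% lower. They were 10 of 49 large subunit genes and 5 of 29 small subunit genes. Differences were positive in 74 genes, and the median was 0.44 against 0.05 over all genes tested, with medians of 0.46 for the large and 0.29 for the small subunit. In 13 genes, 16.7% of the 78, every array labelled KO lay above every control, close to the 13.3% of all genes tested.

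The largest difference was that of Mrps18b, which lay at 3.91, 4.32, 4.35 and 4.54 in controls and at 5.93, 5.44, 5.40 and 4.75 in the arrays labelled KO. Its log2 difference was 1.10 (standard error 0.25, adjusted p = 0.0210 in limma), and replicate 4 was the nearest to the controls. Mrpl16 lay at 3.11, 3.12, 3.64 and 3.43 in controls and at 4.71, 4.41, 4.46 and 3.84 in the arrays labelled KO, a log2 difference of 1.03 (standard error 0.21). Mrpl53 differed by 1.02 (standard error 0.22) and Mrpl34 by 0.93 (standard error 0.20). The 6 large subunit genes with the largest differences past the threshold also include Mrpl30 at 0.81, Mrpl15 at 0.78 and Mrpl46 at 0.77, and the first 4 of the small subunit include Mrps10 at 0.89, Mrps18a at 0.82 and Mrps28 at 0.78. Mrpl58 was at 0.75. Several genes with large falls in BAT differed little in gWAT. Mrps36 was at 0.17 (standard error 0.18) and Mrps12 at 0.15 (standard error 0.17), and neither passed. Mrps26, Mrps21, Mrpl45 and Mrps6 were at -0.020, -0.07, -0.13 and -0.16, the 4 negative values of the 78.

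The count in gWAT rested on few arrays. Leaving out replicate 4 of the arrays labelled KO raised it to 43, and that array was the lowest of its group in all 78 genes. It was 2 without replicate 1, and 1 without replicate 2 or replicate 3, of the same group. Among controls it was 5 without replicate 1 or replicate 3 and 1 without replicate 2. It was 74 with spike-in scaling, which shifted all genes to a median of 0.49. With the median of all genes taken off, the members lay at 0.40 with either the 75th percentile or spike-ins. The 2 are equal by construction, as both subtract a constant from an array. Within the slide that holds both groups the median was 0.23, and as 1 control array stands there against 4, its count of 0 says nothing on whether the genes differ.

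Markers moved with the label in gWAT too. Of the 6 brown adipocyte markers tested, 5 were higher, and the summed level of all 8 was 14.9 to 26.5 in controls and 80.4 to 209.4 in the arrays labelled KO, lowest in replicate 4. Of 10 macrophage markers 3 were higher, with a summed level of 74.6 to 116.2 in controls and of 93.7 to 363.4 in the arrays labelled KO, highest in replicate 4. Of 8 general adipocyte markers 2 were lower, with a summed level of 2225 to 3493 in controls and of 1906 to 2553 in the arrays labelled KO, lowest in replicate 4. Of 4 smooth muscle markers 1 was higher, and of 6 skeletal muscle markers tested 1 was lower. None of the 5 fibroblast markers passed. The part of all these markers in the gWAT result was not tested.

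The related lists in gWAT are to be read against the 9.97% of all genes tested that were higher. In them, 1 of the 5 mitoribosomal proteins with other names was higher, Chchd1 at 0.69 (standard error 0.19). Of 15 translation factors 2 were higher (13.3%), Gfm1 at 0.70 and Tsfm at 0.67 (standard error 0.19 each), which serve translocation and the recycling of Tufm. Of 27 assembly factors 4 were higher (14.8%), among them C1qbp at 0.89 and Mettl15, an rRNA methyltransferase of the small subunit, at 0.80 (standard error 0.23 and 0.20). None of the 14 regulators passed in limma or in the methods' t-test after Benjamini-Hochberg adjustment. At an unadjusted p of 0.05 in limma 2 did, named here after their values were seen, Gabpa at -0.48 and Esrra at 0.57. The share of all genes at that looser threshold was not counted. At the adjusted threshold 9.97% of all genes tested were already higher and 7.85% lower, so that the 2 are a description only. Of 76 cytosolic ribosomal proteins 7 were higher (9.21%), with a median of 0.26 that turned to -0.0068 with quantile normalization, and of 37 complex I subunits 14 were higher (37.8%), with a median of 0.60.

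**Figure D4:**
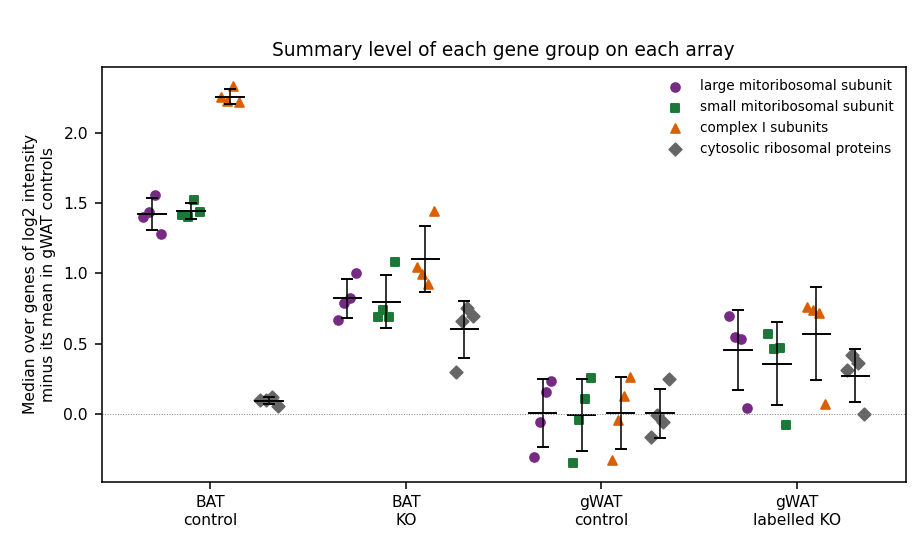
Median over genes of the log2 intensity minus its mean in gWAT controls, on each array (points, replicates 1 to 4 from left to right) for both mitoribosomal subunits, complex I and cytosolic ribosomal proteins, with the mean and SD over 4 arrays. Both subunits fall from about 1.4 in BAT controls to about 0.8 in BAT of KO mice, and replicate 4 of the gWAT arrays labelled KO lies at the level of the controls.

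The genotype difference itself was not the same in the 2 tissues. In 72 of the 78 genes the log2 difference was more positive in gWAT than in BAT past the threshold, and in none more negative, where 27.4% of the 14817 genes tested were more positive and 21.0% more negative. The 72 were 46 of 49 large and 26 of 29 small subunit genes, and the median of this interaction was 1.14. It was largest for Mrpl34 at 2.33 (standard error 0.27, adjusted p = 2.45e-05 in limma), Mrps27 at 1.95 (standard error 0.25), Mrpl30 at 1.90 (standard error 0.25) and Mrps36 at 1.82 (standard error 0.26). Next in the large subunit were Mrpl16, Mrpl53, Mrpl38 and Mrpl35 at 1.79, 1.76, 1.71 and 1.63, and next in the small subunit Mrps18a and Mrps34 at 1.63 and 1.55. Mrps6 at -0.06 (standard error 0.22, adjusted p = 0.849 in limma) and Mrpl45 at 0.31 (standard error 0.22) did not pass. Without both arrays of 14-week-old mice, 76 genes passed, and the median was 1.37. With slide as a fixed block, a fit that leaves 1 control array per tissue to set against the KO arrays, the median was 0.82 and 14 passed.

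In 13 genes the 2 tissues passed in opposite directions, lower in BAT and higher in the gWAT arrays labelled KO. Of all genes tested, 34.0% were lower in BAT and 9.97% higher in gWAT. The share of all genes that passed in both was not counted, so that the 13 are a description. They were Mrpl15, Mrpl16, Mrpl30, Mrpl34, Mrpl38, Mrpl46, Mrpl53, Mrpl57, Mrpl58, Mrps10, Mrps11, Mrps18a and Mrps28. No gene passed in the same direction in both. Across the 78 genes, the size of the BAT difference was hardly related to that of the gWAT difference (Spearman's rho 0.10, over genes, which share the same arrays). As a description, the median gap of BAT over gWAT was 1.43 in controls and 0.33 between the arrays labelled KO, where it had narrowed in 77 of 78 genes. The share of all genes with a narrower gap was not counted. Mrpl34 went from a gap of 3.20 to one of 0.87 and Mrps36 from 3.54 to 1.72.

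**Figure D5:**
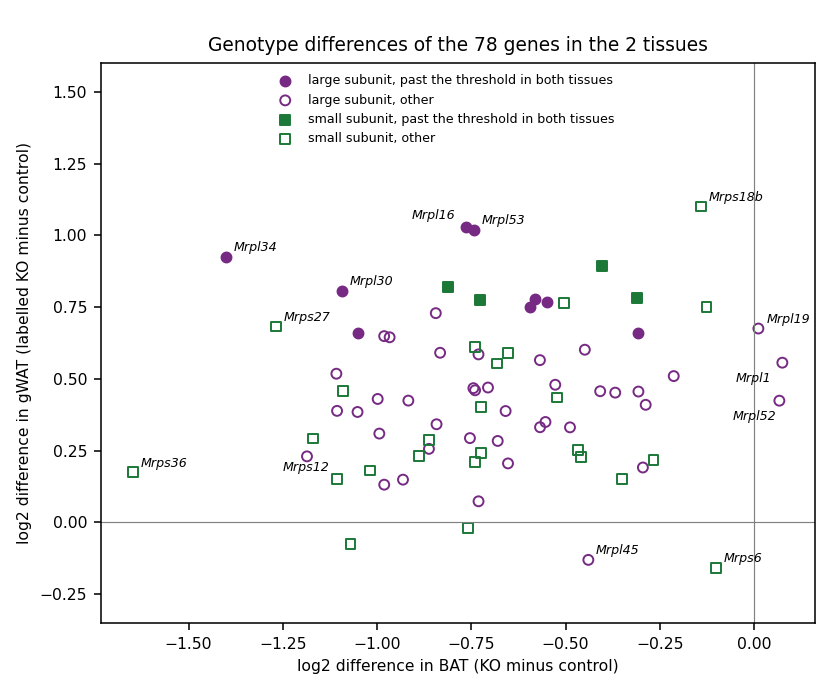
Log2 difference between KO and control in BAT (horizontal axis) against that between the arrays labelled KO and controls in gWAT (vertical axis) for the 78 genes, with circles for the large and squares for the small subunit. Filled symbols mark the 13 genes past the threshold in both tissues, all in the upper left of the plot, and the points show no slope.

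In littermate controls, mitochondrial ribosomal protein transcripts were higher in BAT than in gWAT. Of the 78 genes, 76 were higher in BAT, 1 was lower and 1 did not pass, where 37.0% of the 14301 genes tested were higher and 30.7% lower. The median log2 difference was 1.43, a 2.69-fold higher level, against a median of 0.10 over all genes tested. The large subunit had a median of 1.42 and the small subunit one of 1.43, so that the subunits differed little in their summary. In 76 genes every BAT control array lay above every gWAT control array, which held for 33.6% of the genes tested. Replicate 4 of the BAT controls shared a slide with replicates 1 to 3 of the gWAT controls. The other BAT controls lay on a slide without gWAT arrays, so that slide and tissue cannot be fully told apart. Over all other settings the median lay between 1.06 and 1.76.

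The gap between the tissues was largest for Mrps36, which lay at 6.84, 6.77, 7.06 and 6.94 on the BAT control arrays and at 2.98, 3.28, 3.56 and 3.65 on the gWAT control arrays. The groups did not overlap, and the log2 difference was 3.54 (standard error 0.18, adjusted p = 9.35e-10 in limma). Mrpl34, a small protein of the large subunit, differed by 3.20 (standard error 0.19) and Mrps27, a pentatricopeptide repeat protein of the small subunit, by 2.55 (standard error 0.17). Next in the large subunit were Mrpl42 and Mrpl38 at 2.26 each, Mrpl35 at 2.22 and Mrpl39 and Mrpl47 at 2.20 each, and next in the small subunit Mrps2 at 2.25 and Mrps5 at 1.91. Mrpl12, a protein of the ribosomal stalk that also binds the mitochondrial RNA polymerase, differed by 1.99 (standard error 0.19), and its stalk partner Mrpl10 by 1.72. Mrpl11, at the base of the stalk, differed by 0.85 and Mrpl45, which lies at the exit of the nascent peptide near the inner membrane, by 0.72. Mrpl58, a release factor built into the ribosome, differed by 1.42, and Mrps12 by 1.27. Mrps16 and Mrps22, which are mutated in inherited mitochondrial disease, differed by 1.68 and 1.43.

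Mrps6 ran the other way. It lay at 5.14, 5.14, 5.29 and 4.87 on the BAT control arrays and at 5.26, 5.46, 5.96 and 5.79 on the gWAT control arrays, where the highest BAT array just exceeded the lowest gWAT array. Its log2 difference was -0.51 (standard error 0.16, adjusted p = 0.00935 in limma). It no longer passed after median centring (-0.47) or Actb and Rplp0 scaling (-0.18), or within the slide that holds control arrays of both tissues (-0.69, 1 BAT control array). Mrpl49 showed a difference of 0.38 (standard error 0.19) that did not pass (adjusted p = 0.0918 in limma).

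Other genes of mitochondrial translation were also mostly higher in BAT of controls. All 5 mitoribosomal proteins with other names were higher in BAT (median 1.55), as were all 15 translation factors tested (median 1.67), where Taco1, which activates translation of a cytochrome c oxidase subunit, differed by 2.72 and Guf1 by 2.42 (standard error 0.21 and 0.14). Of 27 assembly factors 26 were higher (median 1.21), with Mrm3 at 1.92 and Rbfa, a maturation factor of the small subunit, at 1.67. Of the 14 regulators 9 were higher and 2 lower, and the coactivators Ppargc1a and Ppargc1b differed most, by 4.43 and 4.15 (standard error 0.47 and 0.29). Of 76 cytosolic ribosomal proteins 20 were higher and 5 lower (median 0.095), and all 37 complex I subunits were higher (median 2.26). The cytosolic counts moved widely with scaling, to 60 higher and 1 lower with Actb and Rplp0 (median 0.43), 7 higher and 15 lower with spike-ins (median -0.13) and 0 higher and 65 lower with quantile normalization (median -0.62).

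Large and small subunit genes were also compared within each array. The median of the large subunit minus that of the small subunit, each as the difference from gWAT controls, was -0.025 ± 0.089 in BAT controls, 0.025 ± 0.091 in BAT of KO mice and 0.013 ± 0.040 in gWAT controls (SD, n = 4 each). In the gWAT arrays labelled KO it was 0.098 ± 0.033 (SD, n = 4), from 0.060 to 0.13, above the gWAT controls at -0.025 to 0.053, a difference given as a description and not tested.

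Many of these genes share their promoter with a neighbour. In 23 of the 69 genes, 33.3%, another gene starts on the opposite strand within 500 bases upstream, against 16.7% of the genes tested in BAT. In a single case both neighbours are mitochondrial ribosomal proteins. Mrpl46 and Mrps11 start 42 bases apart, and were at -0.55 and -0.73 in BAT (standard error 0.13 and 0.14) and at 0.77 and 0.78 in gWAT (standard error 0.21 and 0.17), all past the threshold. Mrps12 starts 147 bases from Sars2, which encodes the mitochondrial seryl-tRNA synthetase and was at -0.59 in BAT. Mrpl30 starts 66 bases from Mitd1, which rose by 0.48 in BAT where Mrpl30 fell by 1.09 on the log2 scale. These neighbours and Mrps11 are named after their values were seen.

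A second probe or more was present for 21 of the genes. Of 23 such probes 21 changed in the same direction as the brightest probe in BAT and 22 in gWAT. The median gap between the probes' log2 differences was 0.15 in BAT and 0.14 in gWAT. The widest was that of Mrps17, whose probes differed by 0.49 in BAT and 0.66 in gWAT.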

How the data were processed

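Total RNA of BAT and gWAT was labelled with Cy3 and hybridised to 1-colour Agilent SurePrint G3 mouse 8x60K arrays, 4 per group. The deposited scanner files, read with Feature Extraction 10.7.1.1 per the labels, hold the processed intensity of each spot, background-subtracted by the scanner software, and flags for outliers, saturation and signal well above background. The authors normalised in GeneSpring. Their deposited value table equals the processed intensity over the array's 75th percentile (median log2 difference at most 0.005 on any array) and served as an alternative. The RNA input differs between the labels and the study's methods. Array intensities carry no read depth, so that the number of arrays limits the precision.

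Control spots and outlier flags were dropped and repeated spots averaged, and each log2 intensity was taken relative to its array's 75th percentile. Probes were named by RefSeq accession (32989 of 35886 matched, 91.9%), and 23616 of 56605 probes stayed unnamed. The brightest probe stood for a gene, and testing required a signal well above background throughout at least 1 of the groups compared. limma 3.58.1 in R 4.3.3 fitted each tissue's 8 arrays, all 16 arrays for the interaction and for the tissues in controls, without covariates, after tests on simulated data. Paralog ratios and figures used Python 3.11.15 with numpy 2.4.6. Alternatives were quantile, median, spike-in (7 probes) and Actb and Rplp0 scaling, normexp background (offset 50, on the median signal, as no mean signal is held), the filter, all probes, slide or replicate number as a block, all arrays in one fit, the methods' t-test, and each array left out. Within-slide values and the fit without both 14-week arrays were chosen after seeing the data.

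Named in each comparison were the 6 large and 4 small subunit genes with the largest differences past the threshold, all in the minority direction, the 2 smallest differences, a fixed set (Mrpl10, Mrpl11, Mrpl12, Mrpl45, Mrpl58, Mrps12, Mrps16, Mrps18a, Mrps18b, Mrps18c, Mrps22 and Mrps36), 2 genes per related list and Pgam1. The members and lists were chosen with earlier results of these data known.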

Additional observations from a re-analysis of the deposited data

Results flagged for a closer look

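In groups of 4 arrays, the highest or lowest array of a named gene was set against the gap to its neighbour by Dixon's test. Of 236 groups 16 stood out, 6.78%, where chance gives about 1 in 20. Of these, 14 were replicate 4 of the KO arrays, the 14-week-old mice. In BAT that array was the highest for Aurkaip1 (7.22), Mrpl17 (3.59), Mrpl30 (5.77), Mrps36 (5.81) and Tsfm (2.10), all on the log2 intensity scale. In the gWAT arrays labelled KO it was the lowest for Aurkaip1 (6.45), Chchd1 (5.02), Mrm2 (-0.89), Mrpl11 (4.80), Mrpl30 (4.73), Mrpl34 (3.65), Mrpl42 (4.62), Mrps26 (4.20) and Mrps36 (3.24). The other cases were replicate 4 of the BAT controls, the only one on the second slide, which was highest for Myc (-0.25) and lowest for Nsun4 (1.51). Replicate 4 was the highest of its group in 76 of the 78 mitochondrial ribosomal protein genes in BAT of KO mice and the lowest in all 78 in the gWAT arrays labelled KO. Among controls, which were 16 weeks old, replicate 4 was the lowest in 38 genes and the highest in 4 in BAT. In gWAT controls it was the highest in 51 genes and the lowest in 0. Both of these control arrays lay on the slide of the KO arrays of their tissue. The part of age or slide in these ranks was not tested.

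The genotype difference differed between the tissues in 72 of the 78 genes by the interaction term in limma. In 13 genes it passed the threshold in opposite directions, lower in BAT and higher in the gWAT arrays labelled KO. The share of all genes that did so was not counted.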

How the results depend on the processing

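In BAT, 69 genes were lower and none higher at a median of -0.73. Quantile normalization gave 1 higher and a median of -0.47, spike-in scaling 26 lower, 7 higher and -0.19, Actb and Rplp0 scaling -1.32, and the slide shared by both groups 37 lower. Leaving out 1 array gave 63 to 70 lower. In gWAT, where 15 were higher and none lower at a median of 0.44, the count was 5 after median centring, 74 with spike-in scaling (median 0.89), 34 with Actb and Rplp0 scaling, 24 with normexp, 2 without the filter, 0 with slide as a fixed block or within the shared slide, 39 with all 16 arrays in one fit, and 4 in the methods' t-test after Benjamini-Hochberg adjustment or 34 unadjusted. Quantile normalization gave 1 lower. Leaving out 1 array gave 1 to 43 higher. For the interaction (72 more positive, none more negative, median 1.14), slide as a fixed block gave 14 and a median of 0.82, quantile normalization 1 more negative and 0.76, Actb and Rplp0 scaling 1.68, and both 14-week arrays left out 1.37. In controls the median over gWAT was 1.06 with quantile normalization, 1.20 with spike-in and 1.76 with Actb and Rplp0 scaling against 1.43, and Mrps6 was no longer lower (0 genes) after median centring, Actb and Rplp0 scaling or within the second slide. Values within a slide, or with slide as a fixed block, set 1 control array per tissue against the KO arrays, so that they make fewer calls by construction. Their medians were smaller in size as well. In gWAT the median was 0.23 within the shared slide against 0.44, and for the interaction 0.82 with slide as a fixed block against 1.14. Since all other controls lay on another slide than the KO arrays of their tissue, slide and genotype cannot be fully told apart. The cause of the other changes was not tested.

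Some small differences changed sign. In BAT these were Mrpl19 (-0.58 with Actb and Rplp0 scaling, -0.024 with slide as a block and within the slide, -0.043 to 0.053 with 1 array left out), Mrpl52 (-0.52 with Actb and Rplp0), Mrpl45 (0.099), Mrps16 (0.017), Mrps18c (0.071), Mrps18b (0.40) and Mrps22 (0.41) with spike-ins, Mrps18b (0.088) and Mrps22 (0.046) with quantiles, and Mrps18b with slide as a block and within the slide (0.069). In gWAT, slide as a block and the within-slide values turned Mrpl11 (-0.22), Mrps12 (-0.16) and Mrps36 (-0.11), quantiles turned Mrpl11 (-0.060) and Mrps12 (-0.011), spike-ins turned Mrpl45 (0.31), Mrps21 (0.37) and Mrps26 (0.42), and median centring turned Mrps21 (0.048) and Mrps26 (0.10). With 1 array left out, Mrps21 ranged from -0.22 to 0.031 and Mrps26 from -0.084 to 0.12. For the interaction, Mrpl45 turned with quantiles (-0.065) and slide as a block (-0.089), and Mrps6 with median centring (0.036), Actb and Rplp0 scaling (0.48), without both 14-week arrays (0.076) and over single arrays left out (-0.18 to 0.057). Of the values of named genes under other settings, 449 of 480 kept their direction and side of the threshold in BAT, 326 of 448 in gWAT, 368 of 390 for the interaction and 474 of 480 in controls.

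The replicate numbers were not shown to pair the samples, as correlations of same-numbered arrays' deviations ran from -0.12 to 0.51. With the number as a replicate block, 66 genes were lower in BAT and 1 was higher in gWAT.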
